A study of Mus musculus with 12 samples.

Results

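Tubulin isotypes are the related genes that encode the alpha and beta chains of microtubules, and 10 of them were followed in mouse liver: Tuba1a, Tuba1b, Tuba1c, Tuba4a and Tuba8 among the alpha chains, and Tubb2a, Tubb2b, Tubb4b, Tubb5 and Tubb6 among the beta chains. The family was picked on measured values, because the signals of Tuba4a and Tubb4b moved in opposite directions under low-dose cadmium (LDC) in male and in female mice. For this pair the LDC values are therefore given as a description without a test. The sex difference averaged over exposure, a contrast orthogonal to both LDC effects and to their difference, enters the counts of calls below. For the pair it is given without a p-value. That average mixes control and LDC mice. For the pair it came mostly from the LDC mice, so it cannot be read apart from the pattern behind the pick. A member was measured by the probe sets that the platform annotation assigns to it alone. Tuba1b and Tuba1c have none, since every probe set that lists them also lists another gene, so 8 genes with 19 probe sets remained, out of 45037 non-control probe sets on the array and 18193 named genes.

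Livers of C57BL/6J mice aged 30 weeks were profiled on 12 Affymetrix Mouse Genome 430 2.0 arrays, 3 for each combination of sex and exposure. LDC mice had 100 nM cadmium chloride in their drinking water until that age, their dams having been exposed from 1 week before copulation, and control mice and their dams had water alone. No other agent and no transgene was used. The labels call arrays of a group biological replicates and say that offspring were housed separately after weaning, which by the study's methods meant several mice to a cage. They do not name the litters or the cages, so the p-values take the mice as unrelated and as independent of their cages.

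Values are MAS 5.0 signals on a linear scale, as deposited, with a mean of 500.0 on every array after trimming 2% at each end. Median signal ran from 95.1 to 110.3 over the 12 arrays, and the correlation between replicate arrays, over probe sets on the log2 scale, was 0.858 to 0.883. All 10 hepatocyte markers examined, Alb and Ttr among them, had signals of at least 12048 on each array. Dim probe sets, those whose mean log2 signal fell short of the 40th percentile of 5.60 (48.6 on the linear scale), were not tested, which left 27022, including 16 of the 19 of tubulin genes. A call below means an adjusted p under 0.05 from limma with Benjamini-Hochberg adjustment over all 27022.

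Microtubules are hollow polymers of heterodimers that pair 1 alpha with 1 beta chain, and mammalian genomes hold several genes for each chain whose products can copolymerize. In hepatocytes microtubules carry secretory vesicles, among them those with albumin and lipoproteins, to the sinusoidal surface and membrane proteins to the bile canaliculus. Cells keep the pool of free tubulin steady, in part because excess heterodimers speed the decay of tubulin mRNAs as these are translated. The array detects mRNA in whole liver tissue, where fewer cells of a type and less RNA per cell cannot be told apart.

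The sequences before the start sites of 3 genes are shown first, those of Tuba4a and Tubb4b, for which the family was picked, and of Tubb2a, which alone of the members tested had a called LDC effect. They are the regulatory DNA nearest to the mRNAs whose levels are compared. They are the 250 bases before the start, 5′ to 3′ on the strand of the gene, from RefSeq (GRCm38.p6), with Tuba4a at chr1:75219295-75219544, Tubb4b at chr2:25224703-25224952 and Tubb2a at chr13:34078009-34078258, all on the minus strand. Capitals mark matches on either strand to 3 common promoter motifs, the CCAAT box (letters CCAAT), the GC box (letters GGGCGG) and the TATA box (letters TATAAA), none of which overlapped here.
Tuba4a: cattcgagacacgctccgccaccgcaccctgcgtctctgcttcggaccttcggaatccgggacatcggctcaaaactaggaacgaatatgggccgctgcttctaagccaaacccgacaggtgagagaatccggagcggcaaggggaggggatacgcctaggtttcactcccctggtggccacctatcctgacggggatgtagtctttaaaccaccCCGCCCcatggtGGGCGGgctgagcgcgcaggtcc
Tubb4b: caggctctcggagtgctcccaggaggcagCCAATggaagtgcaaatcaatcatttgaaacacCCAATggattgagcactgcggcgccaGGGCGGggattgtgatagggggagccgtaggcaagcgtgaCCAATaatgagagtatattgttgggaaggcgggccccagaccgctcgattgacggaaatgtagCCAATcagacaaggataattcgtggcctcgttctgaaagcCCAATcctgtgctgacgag
Tubb2a: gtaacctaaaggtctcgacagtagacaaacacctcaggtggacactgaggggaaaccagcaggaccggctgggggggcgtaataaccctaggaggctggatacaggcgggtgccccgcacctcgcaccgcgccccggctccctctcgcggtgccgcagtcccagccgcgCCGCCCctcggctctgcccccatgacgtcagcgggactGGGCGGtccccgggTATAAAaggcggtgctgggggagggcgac
In Tubb4b there were 5 matches to CCAAT and 1 to GGGCGG, whereas Tuba4a and Tubb2a had 0 matches to CCAAT and 2 each to GGGCGG. Tubb2a alone of the 8 members searched held TATAAA. These are not the 8 genes measured, since Tuba1b and Tuba1c were searched and Tubb2b and Tubb6 were not. Over the same windows of all 32851 entries of the promoter table, 33.8% held CCAAT, 0.213% held it at least 5 times, 32.7% held GGGCGG and 12.4% held TATAAA. None of the 3 windows held the E-box CACGTG (6.02% of all windows) or the paired heat shock motifs GAANNTTC (6.69%) or TTCNNGAA (7.17%). A match is a description of letters and not a site in use. For Tuba4a the start that the table uses lies inside the gene as RefSeq draws it, so other transcripts of that gene start elsewhere.

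Tuba4a, the alpha chain whose gene does not encode the final tyrosine that most alpha tubulins carry, had the least spread within groups of the 8 genes, with a pooled SD of 0.07 on the log2 scale. At its brightest probe set, 1417373_a_at, the signals were 14956, 15267 and 16353 in control females and 18929.9, 20938 and 19283 in LDC females. In males they were 14576, 14524 and 14444 in controls and 7705, 8377 and 8654 in LDC mice. All LDC females thus lay above all control females, all LDC males lay below all control males, and the 3 control males spanned less than any other group. The fitted log2 fold change of LDC over control was -0.82 (standard error 0.08) in males and 0.34 (standard error 0.08) in females. The second probe set of Tuba4a, 1417374_at, gave -0.80 and 0.39, and its groups were ordered in the same way. At the third, 1417375_at, whose mean log2 signal was only 6.68, the values were -0.45 (standard error 0.64) in males and -0.53 (standard error 0.64) in females, where LDC arrays lay below control arrays.

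Tubb4b, a beta chain found in most tissues and in cilia, had signals of 3678, 3017 and 3553 in control females and 5183, 5311 and 5302 in LDC females at its brightest probe set, 1423642_at. In males they were 3522, 3332 and 5193 in controls and 2432, 1888 and 1996 in LDC mice. LDC and control arrays did not overlap in either sex, and control male 3 stood well above the other control males. The log2 fold change was -0.91 (standard error 0.15) in males and 0.63 (standard error 0.15) in females. The other 5 probe sets of Tubb4b were far dimmer, with mean log2 signals from 4.34 to 8.09 against 11.77, and none had LDC and control arrays apart in both sexes with these signs. Of these, 1456078_x_at had the same signs, with -3.24 in males, where LDC arrays lay below control arrays, and 0.35 in females, where they overlapped (standard error 1.31 in each). Over the 5, the male values ran from -3.24 to 2.11 and the female values from -3.35 to 0.35, with standard errors of 0.46 to 1.41 in each sex. LDC and control arrays were thus apart in both sexes, with opposite signs, at 1 probe set of Tubb4b and at the pair of bright ones of Tuba4a.

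**Figure D1:**
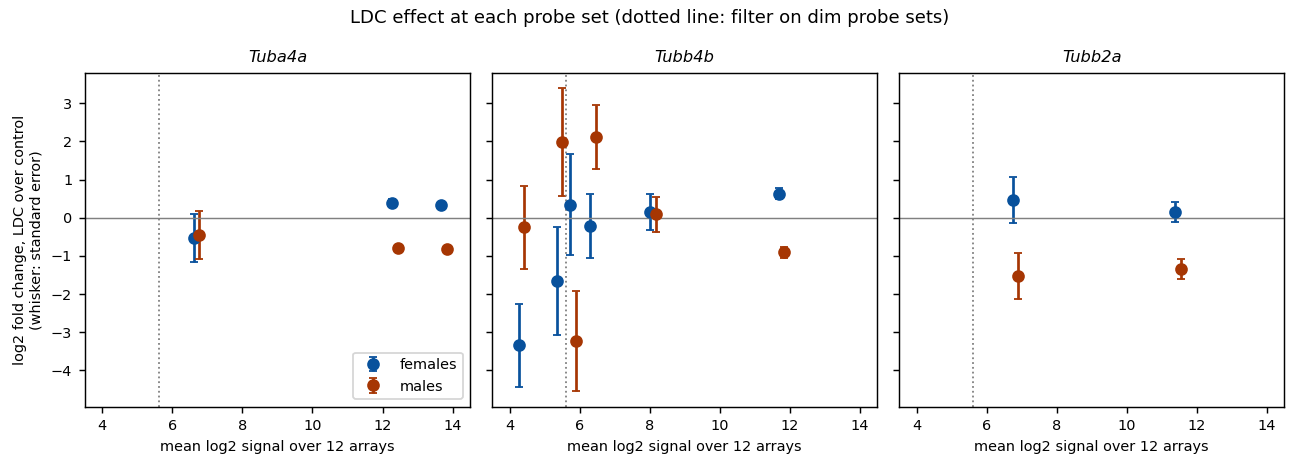
Log2 fold change of LDC over control (y axis, whiskers are standard errors) against mean log2 signal over the 12 arrays (x axis) for every probe set of Tuba4a, Tubb4b and Tubb2a, with females in blue and males in brown and the filter at 5.60 as a dotted line. Both bright probe sets of Tuba4a and the brightest of Tubb4b lie below 0 in males and above 0 in females, whereas the dim probe sets of Tubb4b scatter from -3.35 to 2.11.

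Tubb2a, a beta chain best known from neurons, fell in LDC males. Its signals were 1743, 1969.8 and 3096 in control males and 772, 941 and 905 in LDC males, or 2269 ± 724 and 872 ± 89.1 (mean ± SD, n = 3), with every LDC male below every control male. The log2 fold change was -1.34 (standard error 0.26, adjusted p = 0.0449 from limma). In females the signals were 6219, 3796 and 6942 in controls and 8671, 5124 and 4967 in LDC mice, which overlap, and the log2 fold change was 0.14 (standard error 0.26, adjusted p = 0.915 from limma). The male effect minus the female effect was -1.48 (standard error 0.36, adjusted p = 0.155 from limma), so the effects were not shown to differ between the sexes. A second, dimmer probe set, 1427838_at, gave -1.52 in males (adjusted p = 0.404 from limma) and 0.46 in females (adjusted p = 0.876), again with all LDC males below all control males.

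The male call of Tubb2a lay close to the threshold and held in 11 of 22 alternative settings. It ended with quantile normalization (adjusted p = 0.0696), eBayes without a trend (0.271), the median over probe sets (0.0931) and the replicate number as a block, and without LDC female 2 (0.0727), LDC female 3 (0.0655), control male 2 (0.103), control male 3 (0.166), LDC male 1 (0.159), LDC male 2 (0.102) or LDC male 3 (0.180), while the log2 fold change stayed between -1.51 and -1.09 in all 22.

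Tubb6, a beta chain of many non-neuronal cells, had signals of 222, 165 and 440.5 in control males and 75.4, 72.2 and 120.1 in LDC males at its brighter probe set. All LDC males lay below all control males, among which control male 3 was the highest. The log2 fold change was -1.54 (standard error 0.35) and did not pass (adjusted p = 0.107 from limma). In females it was -0.16 (standard error 0.35, adjusted p = 0.932), with signals of 302, 261 and 262 in controls and 263, 294 and 190.4 in LDC mice. The difference between the sexes was -1.38 (standard error 0.50, adjusted p = 0.365 from limma). The dimmer probe set of Tubb6 gave 0.08 in males and 0.09 in females.

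Tubb5, the beta chain that dividing cells use most, was not called with LDC. Its signals were 2428, 2256 and 2212 in control males and 1808, 2347 and 2113 in LDC males, and 3019, 2194 and 3142 and 2865, 2579.7 and 2269 in control and LDC females, and the LDC and control arrays overlapped in each sex. The log2 fold changes were -0.14 (standard error 0.15, adjusted p = 0.803 from limma) in males and -0.10 (standard error 0.15, adjusted p = 0.884) in females. Its dimmer probe set gave 0.15 in males and -0.17 in females (adjusted p = 0.861 and 0.866 from limma). The missed thresholds do not show that the gene was unaffected.

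Tuba1a, an alpha chain prominent in developing neurons, had signals of 1597, 853 and 1032 in control females and 1218, 1210.4 and 885 in LDC females. In males they were 864, 674 and 775 in controls and 729, 524 and 585 in LDC mice. The groups overlapped within each sex, with log2 fold changes of -0.34 (standard error 0.22, adjusted p = 0.644 from limma) in males and -0.04 (standard error 0.22, adjusted p = 0.977) in females. Tuba8, an alpha chain known from testis and muscle, was dim and variable, from 34.9 to 378 over the 12 arrays, with log2 fold changes of -0.89 in males and -0.98 in females and a standard error of 0.69 in each (adjusted p = 0.723 and 0.724 from limma). Its other probe set gave 0.39 in males and -0.34 in females. Tubb2b, a neuronal beta chain encoded beside Tubb2a, lay under the filter with signals from 1.62 to 81.9 and was not tested.

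**Figure D2:**
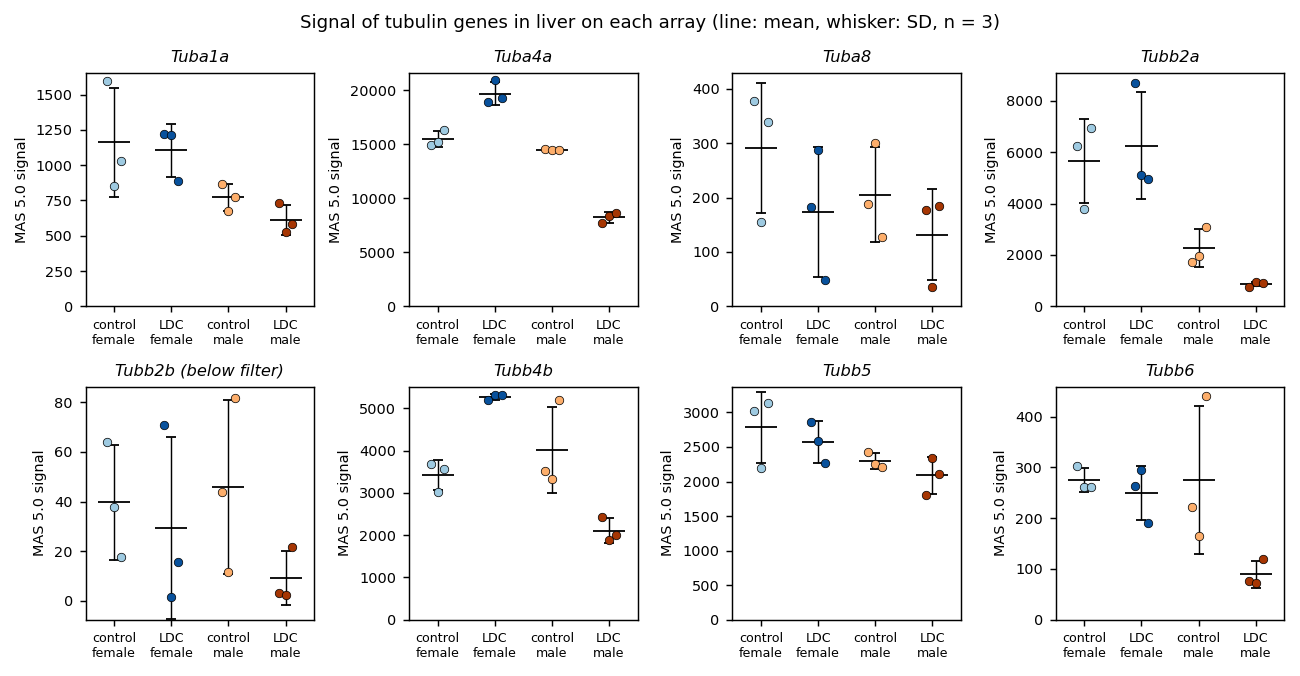
MAS 5.0 signal (y axis, linear, a separate scale for each gene) of the brightest probe set of each of the 8 tubulin genes in the 4 groups (x axis), where points are arrays, lines are means and whiskers are SDs (n = 3). LDC males lie below control males for Tuba4a, Tubb2a, Tubb4b and Tubb6, and LDC females lie above control females for Tuba4a and Tubb4b.

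Apart from Tuba4a and Tubb4b, 9 probe sets of 5 tubulin genes were tested for LDC effects. In males 1 of the 9 was called, that of Tubb2a, where 0.278% of all probe sets were called, and 3 had an unadjusted p under 0.05, against 10.2% of all. In females limma called 0 of the 9, where 0.122% of all probe sets were called, and 0 had an unadjusted p under 0.05, against 9.01%. The difference between the sexes was called for 0 of the 9 (0.178% of all probe sets), with 3 at an unadjusted p under 0.05, against 10.3%. LDC and control arrays did not overlap for 3 of the 9 in males, those of Tubb2a and the brighter one of Tubb6, against 16.5% of all probe sets, and for 0 of the 9 in females, against 13.9%. With so few probe sets these shares describe the genes named and no more.

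**Figure D3:**
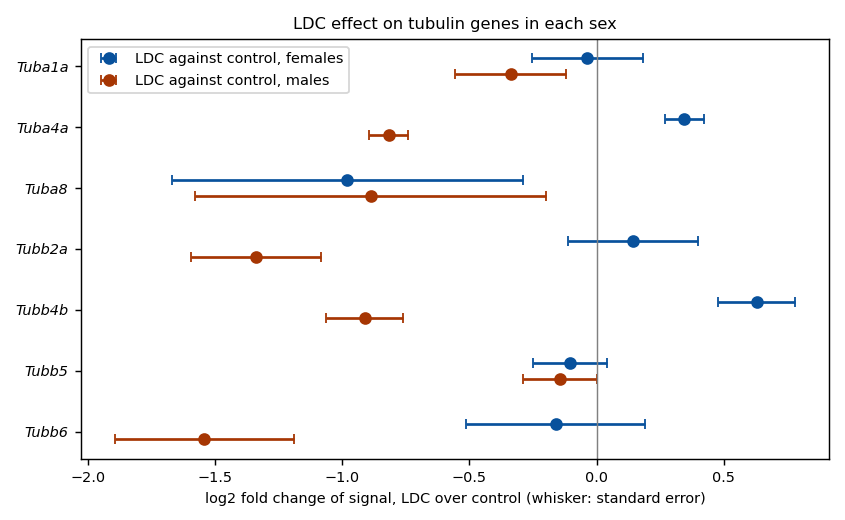
Log2 fold change of LDC over control (x axis, whiskers are standard errors) in females (blue) and males (brown) for the brightest probe set of each tubulin gene tested (y axis). The values of the sexes lie farthest apart for Tuba4a, Tubb2a, Tubb4b and Tubb6, and of the genes tested for this effect only the male value of Tubb2a passed, at -1.34.

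Liver genes differ widely between the sexes, and the tubulin genes were next compared between males and females averaged over exposure. In this contrast 7 of the 16 probe sets tested, of 6 genes, were called lower in males and 0 called higher, while 13.3% of all probe sets were called and 7.31% were called lower in males. The 7 include both bright probe sets of Tuba4a and the brightest of Tubb4b, the genes picked for their LDC pattern. In control mice these gave -0.10 and -0.13 for Tuba4a and 0.21 for Tubb4b, so the count does not describe the family apart from the pick. Tubb2a, at its brighter probe set, differed most of those called, with every male array below every female array. The log2 difference of males minus females was -2.06 (standard error 0.18, adjusted p = 3.18e-06 from limma). Its dimmer probe set gave -1.16 and was not called (adjusted p = 0.0934 from limma), with male and female arrays overlapping. Tuba4a differed by -0.68 (standard error 0.05), with all male arrays below all female arrays at both bright probe sets. Male and female arrays were apart for 3 of the 16 probe sets, against 6.68% of all. They were the brighter one of Tubb2a and both bright ones of the picked Tuba4a. Tuba1a was lower in males by a log2 difference of -0.70 (adjusted p = 0.00715 from limma) and Tubb4b by one of -0.56. The averages of Tuba4a and Tubb4b carry no p, because they came mostly from the LDC mice and so from the pattern behind the pick. For Tubb5 the dimmer probe set passed at -0.60 (adjusted p = 0.0118 from limma), and the brighter one did not at -0.28 (adjusted p = 0.0919).

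Control and LDC mice were also compared apart. In control mice alone Tubb2a, at its brighter probe set, was lower in males by a log2 difference of -1.32 (limma adjusted p = 0.0059, standard error 0.26). In LDC mice alone it was lower by one of -2.80 (standard error 0.26, adjusted p = 1.38e-05). Its dimmer probe set gave -0.18 (standard error 0.61, adjusted p = 0.907 from limma) in control and -2.15 (adjusted p = 0.0496) in LDC mice. The difference in control mice thus rests on 1 probe set. Of the 9 probe sets other than those of Tuba4a and Tubb4b, 2 were called between control males and females and 4 between LDC males and females, where 7.73% and 6.29% of all probe sets were called. Tuba1a gave -0.55 (adjusted p = 0.156 from limma) in control and -0.85 (adjusted p = 0.0315) in LDC mice. Tubb6, called on average at -0.81 (adjusted p = 0.0448 from limma) at its brighter probe set, gave -0.12 (adjusted p = 0.889) in control and -1.50 (adjusted p = 0.019) in LDC mice. Its dimmer probe set went the other way and was not called, at 0.75 on average (adjusted p = 0.166 from limma). That probe set gave 0.75 in control and 0.74 in LDC mice, so the gene as a whole was not shown to be lower in males. Of 23 alternative settings for the call of Tubb6, in which control mice alone and LDC mice alone are counted, only 6 gave a call, LDC mice alone among them. The averaged call ended when any single array was left out (adjusted p = 0.0652 to 0.106 from limma), except LDC female 3, control male 3 or LDC male 3. For Tuba4a the values were -0.10 and -1.26, and for Tubb4b 0.21 and -1.33. These carry no p, because they hold the difference for which the pair was picked. Of this pair, male and female mice thus differed more in signal when exposed than when not.

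**Figure D4:**
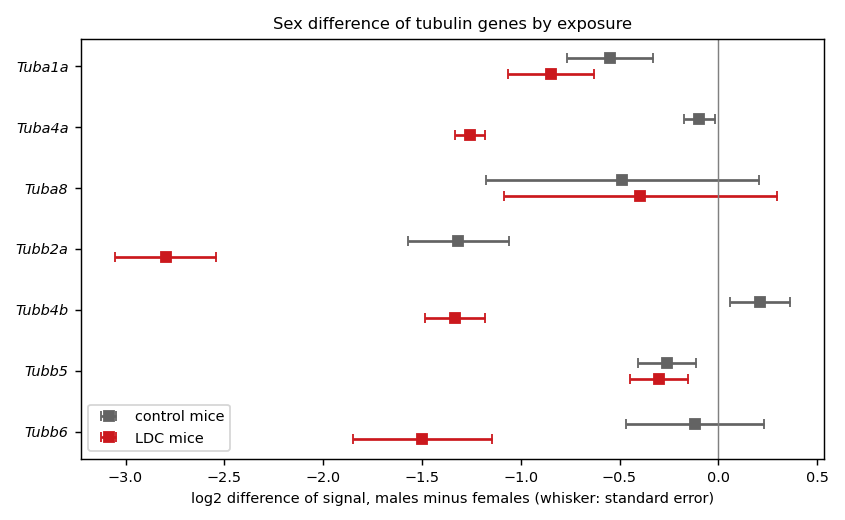
Log2 difference of signal, males minus females (x axis, whiskers are standard errors), in control mice (grey) and LDC mice (red) for the brightest probe set of each tubulin gene tested (y axis). Tubb2a is below 0 in both, at -1.32 and -2.80, while Tuba4a and Tubb4b are near 0 in control mice and at -1.26 and -1.33 in LDC mice.

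Several members share sequence or position. Tuba1b, Tuba1a and Tuba1c follow each other on chromosome 15 with 0 other protein-coding genes between them in RefSeq, as do Tubb2a and Tubb2b on chromosome 13, whereas Tuba4a (chromosome 1) and Tubb4b (chromosome 2) are each alone. The names of the probe sets used for Tuba1a (ending in x_at) and Tubb2a (s_at) mark designs whose probes may also match related transcripts, and how much of these signals comes from other members of the family was not tested. The same holds for 4 of the 6 probe sets of Tubb4b, its brightest excepted.

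Over the 12 arrays, the log2 signal of Tuba4a was most like that of Fndc4 (r = 0.968), a fibronectin domain protein, Cpsf1 (r = 0.942), a subunit of the mRNA cleavage complex, Abcb11 (r = 0.935), the bile salt export pump, Apom (r = 0.934), an apolipoprotein of high-density lipoprotein, and Slc30a10 (r = 0.932), a manganese exporter. Fndc4, at the head of this order, had mean signals of 785 and 499 in control and LDC males and of 999 and 1105 in control and LDC females. For Tubb4b the genes were Ik (r = 0.945), a splicing factor, Eif1b (r = 0.936), a translation initiation factor, Exosc1 (r = 0.926), a subunit of the RNA exosome, Tfg (r = 0.919), a protein of endoplasmic reticulum exit sites, and Krr1 (r = 0.916), a factor of ribosome assembly. The points share 4 groups, and the pair was picked for its group pattern, so these values are a description and the lists for the pair hold different genes.

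The machinery around tubulin was read from 4 gene lists with 80 genes, of which 68 were tested. They hold the other tubulins, the folding factors (the CCT chaperonin, prefoldin and the tubulin cofactors), the enzymes that modify tubulin, and microtubule-associated proteins and motors. limma called 0 of the 68 with LDC in males, 0 in females and 0 for the difference between the sexes, and 4, 3 and 8 had an unadjusted p under 0.05, near or below the 10.2%, 9.01% and 10.3% of all probe sets that did. The median log2 fold change was -0.03 in males and 0.00 in females, beside 0.00 and 0.01 over all probe sets tested. The smallest p in males was that of Kif3a, a kinesin motor subunit, at -1.03 (adjusted p = 0.168 from limma). Map7, which recruits kinesin to microtubules, had values of -0.38 in males and 0.27 in females, a difference of -0.66 (adjusted p = 0.144 from limma). Among folding factors Tcp1, a subunit of CCT, gave -0.18 in males, 0.22 in females and a difference of -0.40 (adjusted p = 0.324).

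Between the sexes, averaged over exposure, 5 of the 68 were higher and 11 lower in males, beside the 13.3% of all probe sets called and the 7.31% called lower. The lower genes included Ttc5, which recognizes nascent tubulin chains in the control of tubulin mRNA, at -0.84 (adjusted p = 0.00101 from limma), Svbp, a partner of the enzymes that remove the final tyrosine, at -0.73 (adjusted p = 0.000219), and Hdac6, a tubulin deacetylase, at -0.77 (adjusted p = 0.00876). The higher ones included Map1lc3b, named for its binding to microtubules and a marker of autophagosomes, at 0.64 (adjusted p = 7.99e-06 from limma), and Clip1, a protein of growing microtubule ends, at 0.55 (adjusted p = 0.000919). Of the 10 genes of the actin and keratin cytoskeleton tested, 0 were called with LDC in either sex and 4 were lower in males (7.31% of all probe sets), led by Actg1, cytoplasmic gamma actin, at -1.10 (adjusted p = 1.99e-05).

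Chaperone and clock genes were read as further lists. Of 14 heat shock and cold-inducible genes tested, limma called 0 with LDC in males, in females or for the difference, while 1, 9 and 8 had an unadjusted p under 0.05, against 10.2%, 9.01% and 10.3% of all probe sets. In females 12 of the 14 had values above 0, with a median of 0.38, and in males 5 of the 14 with a median of -0.05. Chordc1, a partner of HSP90, had the smallest p in females at 0.65 (adjusted p = 0.112 from limma), followed by Dnajb1, a heat shock cochaperone, at 0.64 (adjusted p = 0.144) and Hspa8, a constitutive chaperone, at 0.57 (adjusted p = 0.145). Of 15 circadian clock genes tested, 1 was called in LDC males, Cry1, a repressor of the clock, higher by 1.41 (adjusted p = 0.0448 from limma). None was called in females or for the difference. Over all probe sets 0.278% were called in males, 0.122% in females and 0.178% for the difference. Values lay above 0 for 12 of the 15 clock genes in males (median 0.42) and for 12 in females (median 0.38). Nr1d1, a clock receptor, had a difference of -3.05 between the sexes (adjusted p = 0.171). The part of these lists in the tubulin values was not tested.

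Markers of other cells differed between the groups too. All 10 macrophage and Kupffer cell markers had values above 0 in LDC males (median 0.68) and below 0 in LDC females (median -0.83), with 0 called by limma in either sex. Their summed signal in males was 15650.1 to 16784 without and 22857 to 32075 with LDC, and in females 19289.7 to 51158 without and 7529.5 to 35707 with it. Of 7 neutrophil markers tested, 1 was called higher in LDC males (S100a8), 4 were called lower in LDC females and 4 were called for the difference. Over all probe sets 0.278%, 0.122% and 0.178% were called in these comparisons. The summed signal of the neutrophil list was 1400.4 to 1722 without and 3514 to 3827 with LDC in males, 3620.0 to 6765 and 828 to 1086 in females. Lymphocyte markers summed to 1613 to 1820.3 and 2093 to 3024 in males and 2369 to 4152 and 848 to 1445 in females. Of the 6 tested, 1 was called in females, Jchain, lower with LDC, against 0.122% of all probe sets. For the difference between the sexes 1 of the 6 was called, against 0.178%. The myeloid sums were thus higher with LDC in males. With LDC in females the neutrophil sums were lower, and the macrophage sums overlapped those of controls. Endothelial (8 tested), stellate and fibroblast (9), bile duct (2) and proliferation genes (6) had 0 calls with LDC in either sex. Between the sexes, averaged over exposure, 5 of the 9 stellate and fibroblast markers were called lower in males and 0 higher. Of the endothelial and the lymphocyte markers 1 each was called lower, and of the 10 hepatocyte markers 3 were called higher. Over all probe sets 13.3% were called and 7.31% called lower. The bile duct markers Krt19, Krt7 and Cftr and the lymphocyte markers Cd3e, Cd4 and Cd79a lay under the filter. The part of other cells in the tubulin values was not tested.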

How the data were processed

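RNA from 12 mouse livers was hybridized to Affymetrix arrays, and the authors computed the deposited signal intensities with MAS 5.0 in GeneSpring 12.6.1. The values are linear, and no detection calls were used here. Every value column belongs to a labelled sample. Of 45101 probe sets, 64 controls were left out. Symbols came from the platform annotation of 2016, updated by gene ID for 34754 probe sets; 34945 name 1 gene, 932 several and 9160 none. Depth does not apply to arrays, and their number, 3 a group, limits the precision.

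Intensities were log2 transformed. limma 3.58.1 in R 4.3.3 fitted a mean per group (8 residual degrees of freedom, 6.35 prior ones) with an intensity trend. The procedure was tested on simulated data. A gene is given by its brightest probe set, with its others beside it. Named from the lists were called genes and up to 3 per list with the smallest p, and 5 genes most like each of Tuba4a and Tubb4b by Pearson correlation. The members and the 15 gene lists were chosen with earlier results of these data known. Lists were counted, not tested as sets. The study's methods name no test for the arrays beyond a fold change and a p. Arrays were not treated as paired. As alternatives, the filter was dropped or set at the 20th or 60th percentile, arrays were quantile normalized or centred on their medians, 32 was added before the log2, the eBayes trend was left out, the median over the probe sets of a gene was taken, the replicate number entered as a block, each sex was fitted alone and each of the 12 arrays was left out. Sex differences in control and in LDC mice alone were added after seeing the data. Counting and plotting used Python 3.11.15 with matplotlib 3.10.9.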

Additional observations from a re-analysis of the deposited data

Results flagged for a closer look

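In Tuba4a the difference between the LDC effects in males and females, male minus female, was -1.16 on the log2 scale at 1417373_a_at and -1.19 at 1417374_at, and in Tubb4b it was -1.54 at 1423642_at. They stand here because all 3 LDC males lay below all 3 control males while all 3 LDC females lay above all 3 control females. The difference was not tested, since the genes were picked for it. None of the other tubulin genes showed such an opposition or a called difference.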

How the results depend on the processing

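Apart from Tuba4a and Tubb4b, the number of tubulin probe sets called with LDC in males was 1 (Tubb2a), and it was 0 with quantile normalization, 0 with eBayes without a trend, 0 with the replicate block and 0 with the median over the probe sets of a gene. It ran from 0 to 1 when 1 array was left out. The counts in females and for the difference between the sexes were 0 in every setting run. The number of probe sets called between the sexes, 7, ran from 6 to 8 in the other settings and from 6 to 9 without 1 array, except that the median over probe sets, which leaves 1 value per gene, gave 4. With that median 5 dim probe sets of Tubb4b outweigh the bright one. Its LDC values were then -0.0256 in males, -0.53 in females and 0.50 for their difference, and its sex difference was 0.61. The LDC values of Tuba4a moved by less than its spread between replicates (an SD of 0.07) in all settings run. Its sex difference went from -0.68 to -0.75 with median centring. Signs also turned for values that had not passed, for Tuba8 (difference -0.0248 with quantile normalization) and Tubb5 (0.0048 in males and 0.14 for the difference with the median), and in 14 values without 1 array, which ran from -0.65 to 0.88 for the difference of Tuba8, -0.14 to 0.12 for that of Tubb5, and in females -0.23 to 0.22 for Tuba1a, -0.12 to 0.31 for Tubb2a and -0.29 to 0.0214 for Tubb6. The replicate numbers of the labels did not pair the arrays (same-numbered arrays of different groups correlated at -0.03 to 0.06 in their deviations from group means, and 4 of 12 lay closest to their own number), and with the replicate block the calls of Tubb2a with LDC in males (adjusted p = 0.0619) and of Tubb6 between the sexes (0.0548) ended while no other call of a brightest probe set did. The sex difference of the brightest probe set of Tubb5, not called, was called with median centring (adjusted p = 0.0258 from limma), the median over probe sets (0.0260) and without control female 2 (0.0164). Low signal limits Tuba8, Tubb2b, Tubb6 and the dim probe sets of Tuba4a, Tubb2a and Tubb4b. How far each lay above background was not assessed.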
